A study of Mus musculus with 26 samples.

Results

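RNA-Seq of mouse embryonic fibroblasts (MEFs) labelled as ATRX knockdown (ATRX KD) was compared with RNA-Seq of wild type (WT) MEFs. The comparison used 4 of the 26 libraries of the series, 2 labelled ATRX KD and 2 WT, and all 16785 genes whose estimated counts summed to more than 10 over these 4 libraries, of 53801 identifiers in each file. The cells of every group were female MEFs from a single parental line, grown in DMEM with calf serum. ATRX KD cells were made with an shRNA against Atrx and selected with puromycin, and no library of a control shRNA was analysed here. A further 2 RNA-Seq libraries came from ATRXΔRBR cells, a CRISPR line in which the RNA binding region is deleted from the endogenous Atrx gene. Their values are given only beside the others, because any comparison with them shares the WT libraries. PolyA RNA was sequenced from a strand-specific library kit.

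ATRX is an ATP-dependent chromatin remodeler of the SNF2 family. Together with DAXX it deposits the histone variant H3.3 at telomeres and other repetitive, heterochromatic regions. It also binds RNA, including Xist, and is needed for normal placement of the polycomb complex PRC2, whose catalytic subunit EZH2 writes H3K27me3, a mark of repressed genes. The comparison was designed to ask which genes differ in cells made with an shRNA against Atrx.

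The libraries held between 9051753 and 21723638 estimated counts, and the larger of these belonged to ATRX KD replicate 2. The raw files of the ATRX KD libraries were named in another way than the raw files of the other libraries, and the difference between a transcript's length and its effective length was 36.55 bases in both ATRX KD libraries and 37.0 bases in the other 4, so that the group and whatever these differences stand for cannot be told apart. The WT pair differed more than the ATRX KD pair. Among genes with at least 500 counts in a pair, the SD of the log2 ratio between replicates was 0.372 in WT and 0.126 in ATRX KD, and 0.841% of genes in WT and 0.0238% in ATRX KD were 2-fold or more apart. The study's methods call the replicates biological, and the labels do not say that the ATRX KD libraries came from separate cultures. Their counts differed by a median chi-square of 1.06 per gene, against 4.58 in WT. If they are technical, the p-values measure partly technical spread, so counts of calls are also given with the ATRX KD libraries summed into 1. With 2 libraries against 2, an exact permutation test of a single gene cannot go below a two-sided p of 0.333.

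Atrx itself was not called lower in the libraries labelled ATRX KD. It lies on the minus strand of chromosome X at 105797615 to 105929403 (mm10). Levels are given in CPM, the counts of a gene relative to its library's total after TMM scaling, and fold changes as log2 of ATRX KD over WT. Atrx stood at 629 and 434 CPM in WT, 409 and 543 CPM in the libraries labelled ATRX KD, and 377 and 315 CPM in ATRXΔRBR. The WT and ATRX KD ranges overlapped. The log2 fold change was −0.15 (SE 0.21), with an adjusted p of 0.60 by the quasi-likelihood test of edgeR (Benjamini-Hochberg adjusted), which gave every adjusted p below unless another test is named. Its sign depended on single libraries. The fold change was 0.14 without WT replicate 1 and −0.39 without WT replicate 2.

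Per unit of length, Atrx was higher in the libraries labelled ATRX KD. The deposited TPM values, which divide by the length of the isoforms inferred by RSEM, were 233 and 141 in WT and 331 and 512 in ATRX KD. On the log2(TPM + 1) scale the difference was 1.18, with an adjusted p of 0.044 by limma, and 0.94 (adjusted p 0.11) once the TPM values were scaled to a common median. Between the scales stands the isoform length, since the mean isoform length assigned to Atrx was 4974 and 6292 bases in WT, 2839 and 2405 bases in ATRX KD, and 4524 and 4840 bases in ATRXΔRBR. The assigned length was therefore shorter in both ATRX KD libraries than in any other. Among 12713 genes with a mean of at least 1 CPM, 40 were assigned lengths at least 2-fold shorter in ATRX KD without overlap of the groups, and 13 at least 2-fold longer. Single isoforms and reads along the gene were not analysed here. The study examined its knockdown MEFs by western blot and described ATRX protein as depleted, with less DAXX protein too. Protein was not analysed here, so the RNA values do not bear on that result. The cells are therefore named by their label throughout.

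Of the 16785 genes, 5538 (33.0%) passed an adjusted p of 0.05. Among them 2551 (15.2% of those tested) were higher and 2987 (17.8%) lower in the libraries labelled ATRX KD, and the median log2 fold change of all genes was −0.02. With the ATRX KD libraries summed into 1 sample, 1622 genes were called higher and 1858 lower, and 3323 genes were called both ways. On the TPM scale 2649 were higher and 1466 lower, so that the higher share of the calls rose from 46.1% to 64.4%, and with TPM scaled to a common median 1764 were higher and 2238 lower. The median of genes with at least 1 CPM was 0.23 further up on the TPM scale before that scaling. No gene called on both scales changed sign. Among the 9733 genes with at least 10 CPM in the higher group, 96 were called at least 4-fold higher and 174 at least 4-fold lower, and 25 and 108 were at least 8-fold apart.

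The largest falls were in genes of varied function that ended at or near 0 reads. Cacna2d1, an auxiliary subunit of voltage-gated calcium channels, stood at 73.7 and 92.7 CPM in WT and had no count in either ATRX KD library. Taking 3 counts over the group as the limit of detection, it was at least 847-fold lower. Pde3b, a phosphodiesterase that breaks down cAMP and cGMP, went from 31.2 and 39.1 CPM to 0 in both, at least 358-fold lower. Cdkn1c, the imprinted gene of the cell cycle inhibitor p57, was at 20.6 and 16.0 CPM in WT and 0 in both ATRX KD libraries, at least 189-fold lower. Such bounds rest on the sum of 2 libraries and cover counting error only.

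Gnai1, an inhibitory G protein subunit, and Hunk, a protein kinase, were each at least 181-fold lower. Kcnip1, a subunit of potassium channels (164), Enpp2, which encodes the lysophospholipase autotaxin (154), and Zfp110, a zinc finger gene (143), followed as lower bounds of the fold. Hebp1, a heme binding protein (134), Galnt17, of the family that starts O-linked glycosylation (127), and Srpx2, a secreted sushi domain protein (117), had the next bounds. Hs6st2, a heparan sulfate sulfotransferase, kept 1 count in each ATRX KD library. Its levels were 100 and 91.5 CPM in WT and 0.108 and 0.0457 CPM in ATRX KD, a count ratio of 1470 with a 95% counting interval of 408 to 12200. The rule that picked these 12 genes required that their WT and ATRX KD libraries did not overlap.

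Levels in the ATRXΔRBR libraries differed among these genes. In 8 of the 12, both ATRXΔRBR libraries were below both WT libraries, as for Hs6st2, with 4.27 and 4.04 CPM. The 12 were picked by their fall against the same WT libraries, so the choice itself bears on this count, which is given as a description only. The share over all genes was not counted. Cdkn1c was not among these, at 19.4 and 23.1 CPM in ATRXΔRBR. Over all genes with a WT mean of at least 10 CPM, 16 had no count in either ATRX KD library, 14 of them protein-coding, whereas 1 gene was at 0 in both WT libraries and at least 10 CPM in ATRX KD.

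**Figure D1:**
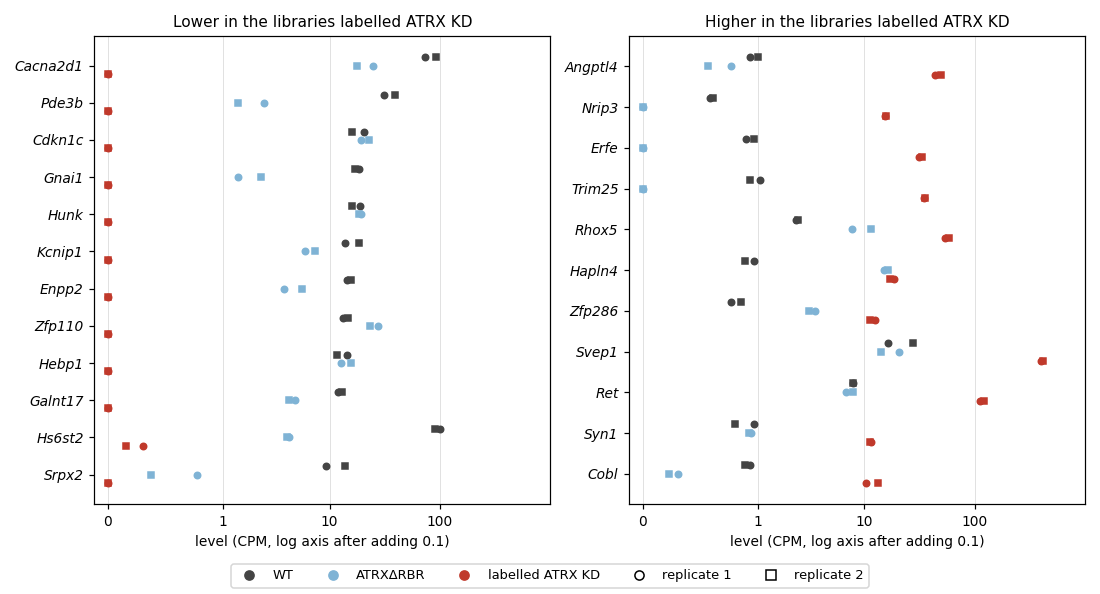
Level of the most lowered (left) and most raised (right) genes in every RNA-Seq library, in CPM on a log axis after adding 0.1. Circles are replicate 1 and squares replicate 2. In the left panel 11 genes sit at 0 in both libraries labelled ATRX KD. In the right panel every ATRX KD point lies above both WT points, as the rule that picked the genes required.

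The largest rises were in genes near 1 CPM in WT. Angptl4, a secreted inhibitor of lipoprotein lipase, stood at 0.836 and 1.0 CPM in WT and 43.6 and 49.8 CPM in ATRX KD, a log2 fold change of 5.67 (SE 0.22, adjusted p 3.3e-05). Erfe, which encodes the iron regulating hormone erythroferrone, went from 0.76 and 0.918 to 31.6 and 33.6 CPM (5.27, SE 0.22). Trim25, a ubiquitin ligase of the RIG-I antiviral pathway, went from 1.06 and 0.835 to 34.8 and 35.3 CPM (5.19, SE 0.22). In ATRXΔRBR these genes stood at 0.534 and 0.294 CPM for Angptl4 and 0 for the others.

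Svep1, a large matrix protein, reached the highest level of the group. It rose from 16.6 and 27.5 CPM to 398 and 418 CPM (log2 fold change 4.22, SE 0.24). Ret, a receptor tyrosine kinase for ligands of the GDNF family, rose from 7.83 and 7.93 to 113 and 122 CPM (3.90, SE 0.14). Rhox5, an X-linked homeobox gene, rose from 2.36 and 2.42 to 53.7 and 59.2 CPM (4.56, SE 0.18). Also raised were Nrip3 (5.57), Hapln4 (4.41), Zfp286 (4.29), Syn1 (3.89) and Cobl (3.88), with the log2 fold change in parentheses. Rhox5, Hapln4 and Zfp286 were also above WT in both ATRXΔRBR libraries, and 6 of the 12 genes with the largest rises were below WT there. For these counts too the share over all genes was not counted.

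Genes of cholesterol synthesis were lower as a group. The pathway builds cholesterol from acetyl-CoA through mevalonate and squalene, and its genes are under the control of SREBP2. Of 25 tested genes of the pathway and its regulation, 20 were called lower and none higher, against 17.8% of all genes called lower, and all 25 fold changes were below 0. Their median was −0.86, and −0.84 relative to the median of each gene's own chromosome. The summed level of the list was 12400 and 12700 CPM in WT, 6100 and 6090 CPM in ATRX KD, and 12600 and 12500 CPM in ATRXΔRBR. The WT and ATRX KD groups were thus separated by far more than either pair of replicates.

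Among the enzymes, Cyp51, which demethylates lanosterol, stood at 1650 and 1650 CPM in WT and 511 and 513 CPM in ATRX KD (log2 fold change −1.68, SE 0.10, adjusted p 0.00014). Msmo1, the methylsterol oxidase that acts after it, stood at 1310 and 1270 against 394 and 376 CPM (−1.74, SE 0.11). Sqle, squalene epoxidase, stood at 1090 and 1110 against 352 and 366 CPM (−1.61, SE 0.11). Hmgcs1, HMG-CoA synthase, was at 1700 and 1890 CPM in WT and 801 and 750 CPM in ATRX KD (−1.21, SE 0.11, adjusted p 0.00054).

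Regulators of the pathway differed in their calls. Insig1, which retains SREBP in the endoplasmic reticulum, was at 379 and 420 CPM in WT and 143 and 145 CPM in ATRX KD (log2 fold change −1.47, SE 0.11). Srebf2, the gene of SREBP2, was at 640 and 603 against 504 and 533 CPM, which did not pass (−0.26, SE 0.11, adjusted p 0.11). Fewer members were called with fewer degrees of freedom or on the other scale, 14 lower with the ATRX KD libraries summed, 13 lower on the TPM scale and 16 lower with TPM scaled to a common median, and none was called higher in these.

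A sterol response element was looked for in the promoters of the list, since SREBP binds such elements. Promoters were taken from RefSeq (GRCm38.p6), from 250 bases before to 50 bases after the start, for 17 of the 25 genes. The letters TCACNCCAC on either strand were found in 1 of them, Hmgcs1, and in 388 of all 27025 genes with a promoter (1.44%). The stretch of Hmgcs1 is shown because it is the match in this list, with the searched letters in capitals, 137 bases before the start, at chr13:119690189-119690247 on the plus strand.
Hmgcs1: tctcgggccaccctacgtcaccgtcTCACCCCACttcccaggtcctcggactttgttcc
A match is a string of letters in a window, and binding of SREBP was not measured.

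Target genes of NF-kB and chemokines were lower as well. NF-kB factors are held in the cytoplasm by IkB proteins and, once freed, switch on chemokines, adhesion molecules and their own inhibitors. Of 20 tested members 14 were called lower and none higher, with a median log2 fold change of −1.05 (−1.12 relative to their chromosomes), and 13 were called lower with the ATRX KD libraries summed. Vcam1, an adhesion molecule for leukocytes, stood at 63.2 and 67.0 CPM in WT and 3.58 and 3.70 CPM in ATRX KD (−4.15, SE 0.16, adjusted p 3.3e-05). C3, the central complement component, stood at 18.8 and 25.3 against 0.434 and 0.183 CPM (−6.35, SE 0.37). In ATRXΔRBR both were above WT, Vcam1 at 89.2 and 84.6 CPM and C3 at 75.7 and 58.2 CPM.

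The chemokines were lower by smaller folds. Cxcl1, which draws neutrophils, was at 133 and 197 CPM in WT and 26.9 and 21.1 CPM in ATRX KD (log2 fold change −2.79, SE 0.22). Cxcl5, which acts on the same receptor, was at 227 and 223 against 71.3 and 66.3 CPM (−1.71, SE 0.12). Ccl2, which draws monocytes, was at 96.0 and 77.6 against 25.9 and 24.7 CPM (−1.78, SE 0.15), and the related Ccl7 had a fold change of −2.67. No ATRX KD value of these genes reached the WT range.

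Of the NF-kB subunits, those of the noncanonical arm were lower. Nfkb2 was at 218 and 191 CPM in WT and 102 and 105 CPM in ATRX KD (log2 fold change −0.98, SE 0.12, adjusted p 0.0017). Relb was at 36.2 and 26.8 against 9.0 and 11.5 CPM (−1.60, SE 0.21). The canonical subunits did not pass, with Nfkb1 at 167 and 172 against 172 and 185 CPM and Rela at 164 and 117 against 109 and 117 CPM. Nfkbia, the gene of IkB alpha, was lower (−0.87, SE 0.20, adjusted p 0.016). Tnfaip3, another inhibitor of the pathway, was at 34.9 and 46.0 against 37.4 and 40.0 CPM (−0.06, adjusted p 0.82).

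**Figure D2:**
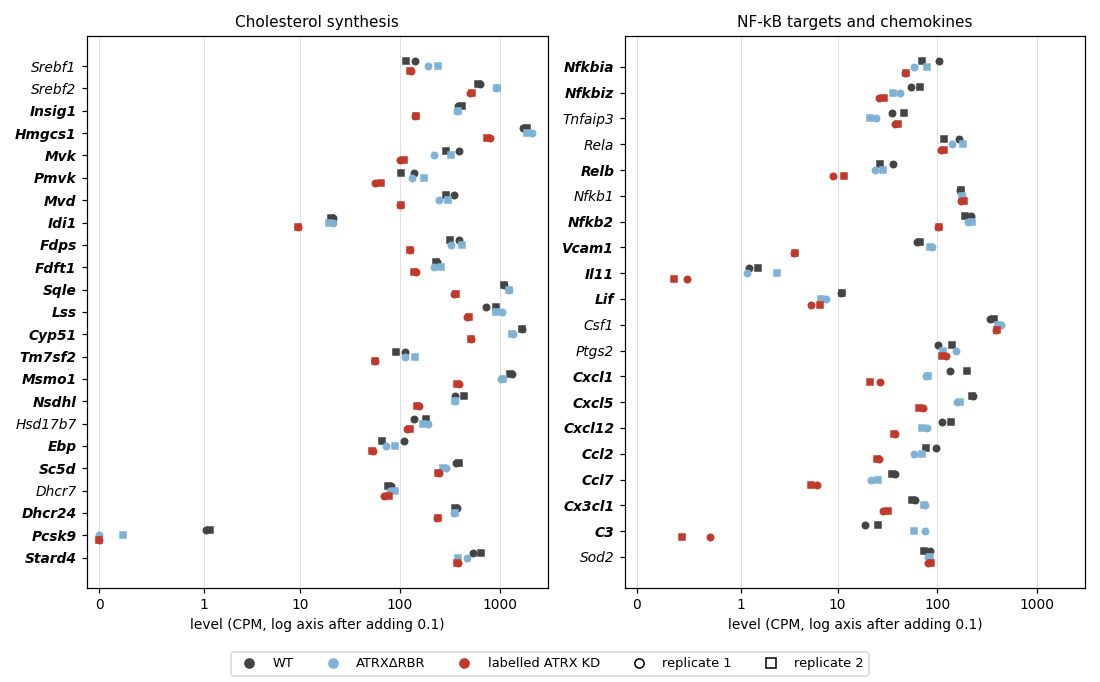
Level of genes of cholesterol synthesis (left, ordered from regulators along the pathway) and of the NF-kB list (right, inhibitors and subunits above targets) in every RNA-Seq library, in CPM on a log axis after adding 0.1, with names of called genes in bold. In the left panel the ATRX KD points of the genes in bold lie left of both WT points, and in the right panel the same holds for 14 genes.

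The kappaB motif was searched as 3 G, any 2 bases, 3 T and 2 C on either strand. It was found in the RefSeq promoters of 5 of the 13 members that had one (38.5%) and of 512 of all 27025 genes (1.89%). The list was chosen as genes of the NF-kB pathway, so the comparison with all genes does not bear on which genes fell. The 5 were Nfkbia, Nfkb2 and Cxcl1, called lower, and Tnfaip3 and Csf1, which were not called. Matches were thus in 3 of the 8 members called lower that had a promoter and in 2 of the other 5. The stretches of the 3 that fell are shown with the match in capitals: Nfkbia at chr12:55492642-55492701 on the minus strand, Nfkb2 at chr19:46304701-46304760 and Cxcl1 at chr5:90891131-90891208, both on the plus strand. The match in Nfkbia is in the reverse orientation, and Cxcl1 has a match in each orientation. Nfkb2 has a further match near another annotated start, at chr19:46305680-46305739.
Nfkbia: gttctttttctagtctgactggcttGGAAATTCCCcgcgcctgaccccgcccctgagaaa
Nfkb2: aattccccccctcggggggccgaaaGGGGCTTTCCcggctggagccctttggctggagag
Cxcl1: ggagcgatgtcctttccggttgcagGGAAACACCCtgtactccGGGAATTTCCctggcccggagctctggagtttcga

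Members of the unfolded protein and ATF4 list were called lower more often than higher. ATF4 is translated when the kinases of the integrated stress response are active and switches on genes of amino acid uptake and synthesis. Of the 22 members, 13 were called lower and 1 higher, with a median of −0.57. Atf4 itself was at 821 and 744 CPM in WT, 281 and 288 CPM in ATRX KD, and 1120 and 1370 CPM in ATRXΔRBR (log2 fold change −1.45, SE 0.11, adjusted p 0.00032). Asns, asparagine synthetase, was at 213 and 193 against 84.0 and 79.3 CPM (−1.31, SE 0.12). Slc7a11, the cystine transporter subunit, was at 43.1 and 57.2 against 1.74 and 1.64 CPM (−4.89, SE 0.23). For Asns the ATRXΔRBR libraries stood above WT, at 449 and 477 CPM, and for Slc7a11 below it, at 6.94 and 5.0 CPM.

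Hspa5, the gene of BiP, was at 1300 and 1300 CPM in WT and 1260 and 1300 CPM in ATRX KD (log2 fold change −0.03, SE 0.10, adjusted p 0.86). Other chaperones of the endoplasmic reticulum that did not pass were Hsp90b1, at 2380 and 2400 against 2200 and 2210 CPM (−0.11, adjusted p 0.41), and Calr, at 1080 and 863 against 1180 and 1170 CPM (0.27, adjusted p 0.16). Herpud1, which acts in degradation of proteins of that compartment, was lower (−1.24, SE 0.12), as was Creld2 (−0.69, SE 0.17). Pdia4, a disulfide isomerase of the endoplasmic reticulum, was higher (0.61, SE 0.11, adjusted p 0.0068). With the ATRX KD libraries summed 7 members were lower. On the TPM scale 6 were lower and 2 higher, and 12 lower and 1 higher with TPM scaled to a common median. The CARE letters TGATGNAAT, to which ATF4 binds, were on either strand in none of the 20 promoters found and in 1.08% of all.

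Genes of the translation machinery and of respiration, which are short, were lower. Of 81 cytosolic ribosomal protein genes 55 were called lower and 1 higher, with a median log2 fold change of −1.14. Their summed level was 15300 and 11500 CPM in WT, 5510 and 5960 CPM in ATRX KD, and 9820 and 13600 CPM in ATRXΔRBR. The WT replicates themselves differed, by a median of 0.34 on the log2 scale between replicate 1 and 2, less than the difference from ATRX KD in any of the 4 pairs of libraries (medians −1.31 to −0.93). Rps19 was at 94.1 and 68.4 CPM in WT and 4.99 and 5.30 CPM in ATRX KD (−3.97, SE 0.21). Rpl39 was at 288 and 196 against 19.4 and 20.6 CPM (−3.59, SE 0.21). Reads of these genes can be split with processed pseudogenes, 14 of which are named for Rps19 in the annotation, so single values are uncertain. The 1 gene called higher, Rpl38, had 0.076 and 0.167 CPM in WT and 0.868 and 1.23 CPM in ATRX KD.

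Hosts of small nucleolar RNAs, many of which start with the terminal oligopyrimidine tract that ribosomal protein genes also carry, were lower in 10 of 13 cases, with 1 higher and a median of −1.35. Gas5 was at 288 and 302 CPM in WT and 113 and 123 CPM in ATRX KD (log2 fold change −1.32, SE 0.12). Snhg1 was at 300 and 310 against 73.7 and 64.6 CPM (−2.14, SE 0.12). The WT replicates were close to each other for both, unlike for ribosomal protein genes. The exception was Snhg14 on chromosome 7, at 2.66 and 3.51 against 17.7 and 14.5 CPM (2.38, SE 0.24).

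Of 80 nuclear genes of oxidative phosphorylation, 40 were called lower and 3 higher, with a median of −0.62, and −0.48 relative to their chromosomes. Here the WT replicates differed by a median of 0.39, close to the −0.31 of the nearest ATRX KD and WT pair. With the ATRX KD libraries summed 21 were called lower, and 61 without WT replicate 2. Cox6c, a subunit of cytochrome c oxidase, was at 251 and 223 CPM in WT and 55.4 and 62.1 CPM in ATRX KD (log2 fold change −2.01, SE 0.13). Of 7 mitochondrially encoded genes tested, 1 was called, mt-Nd6 (−0.62, SE 0.12). Of 37 proteasome subunits 18 were lower and 1 higher, with a median of −0.40, and the gene that was higher was Psmb9 (1.55), a subunit of the immunoproteasome. The WT replicates differed by a median of 0.31 over these subunits, close to the −0.32 of the nearest ATRX KD and WT pair.

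Extracellular matrix genes changed strongly in both directions. Of 30 collagen genes 11 were called lower and 5 higher, with a median of −1.07. Col3a1, a fibrillar collagen, stood at 71.2 and 61.2 CPM in WT and 0.434 and 0.548 CPM in ATRX KD (log2 fold change −6.99, SE 0.23, adjusted p 2.4e-05). Col6a3, of the microfibrillar type, stood at 54.3 and 66.9 against 0.759 and 0.0913 CPM (−7.62, SE 0.45). Col12a1 went the other way, from 215 and 351 to 1080 and 1150 CPM (1.98, SE 0.22, adjusted p 0.0011). The most abundant ones, Col1a1 and Col1a2, did not pass, with Col1a2 at 6030 and 4280 CPM in WT and 4680 and 4970 CPM in ATRX KD.

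Matrix glycoproteins divided likewise, with 12 higher and 15 lower of 39. Thbs1 and Thbs2 encode related thrombospondins and moved apart. Thbs1 rose from 258 and 274 to 1370 and 1400 CPM (log2 fold change 2.39, SE 0.11, adjusted p 6e-05), and Thbs2 fell from 27.3 and 34.0 to 0 and 0.137 CPM, a count ratio of 312. The fibrillins did so too. Fbn1 rose from 110 and 132 to 520 and 542 CPM (2.14, SE 0.13), and Fbn2 went from 5.93 and 6.93 CPM to 0 in both. Fn1, fibronectin, rose from 1710 and 2280 to 3750 and 4150 CPM (0.99, SE 0.15). Of 34 matrix proteases and inhibitors, 10 were higher, among them Adamts2 and Plau, and 9 lower, among them Adamts9 and Mmp16.

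Contractile genes were called in both directions. Acta2, smooth muscle actin, was at 57.7 and 49.1 CPM in WT and 3.69 and 3.74 CPM in ATRX KD (log2 fold change −3.83, SE 0.18, adjusted p 6e-05), and Tpm2, a tropomyosin, at 137 and 86.7 against 19.1 and 22.9 CPM (−2.40, SE 0.24). Myh11, the smooth muscle myosin heavy chain, was higher but low in all libraries, at 0.076 and 0 against 0.868 and 0.594 CPM (3.88, SE 1.04), and Cald1, caldesmon, was at 671 and 693 against 973 and 980 CPM (0.52, SE 0.10). Also higher were Myh9, a nonmuscle myosin heavy chain, at 1280 and 1120 against 1700 and 1940 CPM (0.60, SE 0.13) and Flna, filamin A, at 1010 and 1190 against 1590 and 1670 CPM (0.57, SE 0.12). In all 10 of the 25 list members were higher and 6 lower.

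Signalling genes of the TGF-beta and BMP families were higher more often than lower, 12 against 5 of 29, with a median of 0.34. Tgfb2, a ligand, rose from 20.1 and 16.2 to 94.4 and 85.4 CPM (log2 fold change 2.31, SE 0.16, adjusted p 0.0002). Grem1, a BMP antagonist, rose from 6.84 and 6.84 to 23.9 and 26.1 CPM (1.87, SE 0.17), and Bmpr2, a receptor, from 116 and 110 to 264 and 253 CPM (1.20, SE 0.11). Ltbp4, which binds latent TGF-beta, fell from 30.8 and 27.8 to 5.75 and 6.03 CPM (−2.30, SE 0.17). With the ATRX KD libraries summed 7 members were called higher. Wnt genes gave 7 higher and 7 lower of 27 (25.9% each), with Rspo3, a Wnt enhancer, among the falls (8.59 and 6.68 against 0.434 and 0.365 CPM).

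Of 34 DNA replication genes 13 were called lower and 2 higher, with Pcna, the sliding clamp, at 183 and 193 CPM in WT and 111 and 100 CPM in ATRX KD (log2 fold change −0.83, SE 0.12) and Mcm7, a helicase subunit, at 294 and 293 against 140 and 142 CPM (−1.06, SE 0.11). Of 28 mitotic genes 11 were called higher and 3 lower. Cenpf, a kinetochore protein, was at 157 and 175 against 383 and 409 CPM (1.26, SE 0.12), and Top2a, which decatenates DNA, at 673 and 815 against 1300 and 1290 CPM (0.80, SE 0.12). Both counts shrank with the ATRX KD libraries summed, to 3 replication genes lower and 5 mitotic genes higher. Inhibitors of the Ink4 and p53 type were lower, with Cdkn2b at 125 and 94.0 against 49.4 and 53.4 CPM and Cdkn1a at 149 and 109 against 79.0 and 76.2 CPM. In the p53 and Ink4 list as a whole 8 of 27 (29.6%) were lower and 2 (7.41%) higher.

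Interferon response genes were called in both directions, 14 higher and 16 lower of 50. Besides Trim25, Xaf1, an inducible proapoptotic gene, rose from 3.49 and 3.84 to 19.9 and 18.9 CPM (log2 fold change 2.40, SE 0.19). Trim30a went from 5.24 and 5.26 CPM to 0 in both, at least 53.8-fold lower, and Ifi204, a DNA sensor of the Ifi200 family, fell from 29.4 and 34.1 to 9.98 and 7.99 CPM (−1.83, SE 0.18). The median of the list was −0.06, and 0.09 on the TPM scale once TPM was scaled to a common median. Of 21 MHC class I genes 5 were higher and 1 lower. B2m, the shared light chain, was the lower one (−0.47, SE 0.11).

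Single developmental factors fell close to 0, while the shares called in the forkhead, Sox and Hox families were below those of all genes. Of 37 forkhead and Sox genes 6 (16.2%) were lower and 3 (8.11%) higher, against 17.8% and 15.2% of all genes, and of 6 T-box genes 2 were lower. Tbx1, a T-box factor of pharyngeal development, stood at 9.65 and 6.93 CPM in WT and 0 and 0.0457 CPM in ATRX KD, a count ratio of 257. Of 18 Hox genes, 3 (16.7%) were lower and 2 (11.1%) higher. Hoxa9 and Hoxa10, which pattern posterior structures, were the most changed of them, with Hoxa9 at 5.62 and 6.01 CPM in WT and 0.108 and 0 CPM in ATRX KD. Both stood above WT in ATRXΔRBR, Hoxa9 at 10.7 and 11.1 CPM. Fgfr2, a receptor of fibroblast growth factors, fell from 13.6 and 14.9 to 0.108 and 0.228 CPM (log2 fold change −6.15, SE 0.35).

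Of 10 insulin-like growth factor genes, 4 were higher and 5 lower. Igfbp7, a secreted binding protein, rose from 15.8 and 11.1 to 71.4 and 79.4 CPM (log2 fold change 2.49, SE 0.19), and Igf2bp3, an RNA binding protein of fetal tissues, fell from 12.2 and 10.5 to 1.3 and 1.96 CPM (−2.72, SE 0.28). Its paralog Igf2bp1 rose from 50.8 and 42.2 to 88.3 and 94.9 CPM (0.98, SE 0.14). Related genes thus stood on opposite sides, and the median of the family was −0.39, and −0.12 with TPM scaled to a common median.

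Genes of cell adhesion and guidance were called both ways. Of 43 semaphorins, plexins, ephrins and Eph receptors 14 were higher and 8 lower. Sema3a, a secreted repellent of axons, fell from 17.8 and 22.4 to 0.217 and 0 CPM, a count ratio of 307, and Epha4, an Eph receptor, rose from 1.82 and 1.59 to 9.65 and 10.1 CPM (log2 fold change 2.53, SE 0.25). Cdh2, N-cadherin, rose from 75.1 and 82.6 to 220.0 and 216 CPM (1.47, SE 0.12), and Cdh13, T-cadherin, from 35.7 and 36.3 to 67.9 and 68.7 CPM (0.93, SE 0.12). These were the 2 cadherins called higher of 9, and 3 were lower, Cdh3 (−4.20), Cdh18 (−4.03) and Cdh1 (−2.99), with a median of −1.09. Of 30 clustered protocadherins 7 (23.3%) were lower, all of the beta cluster, and 3 (10.0%) higher, all of the gamma cluster. Pcdhb17 was at 10.6 and 11.5 CPM in WT and 2.39 and 2.05 CPM in ATRX KD (−2.33, SE 0.24).

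Among genes of redox and one-carbon metabolism, Aldh1l2, the mitochondrial 10-formyltetrahydrofolate dehydrogenase, fell from 171 and 291 to 3.36 and 4.52 CPM (log2 fold change −5.81, SE 0.32), while ATRXΔRBR had 594 and 414 CPM. Of 20 NRF2 targets 8 were lower and 2 higher. Ftl1, the ferritin light chain, was at 138 and 99.6 CPM in WT and 1.74 and 2.01 CPM in ATRX KD (−5.95, SE 0.25). Its reads can be split with near-identical copies and with the overlapping Gm22133, so this value is uncertain. Hmox1, heme oxygenase, rose from 88.4 and 78.6 to 186 and 199 CPM (1.21, SE 0.12). Of 232 solute carriers 56 (24.1%) were higher and 39 (16.8%) lower. Among them Slc6a6, the taurine transporter, was at 247 and 248 CPM in WT and 731 and 728 CPM in ATRX KD (1.56, SE 0.11). Of 11 S100 genes 6 were lower and 1 higher, with S100a6 at 2680 and 1610 against 639 and 662 CPM (−1.72, SE 0.23).

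**Figure D3:**
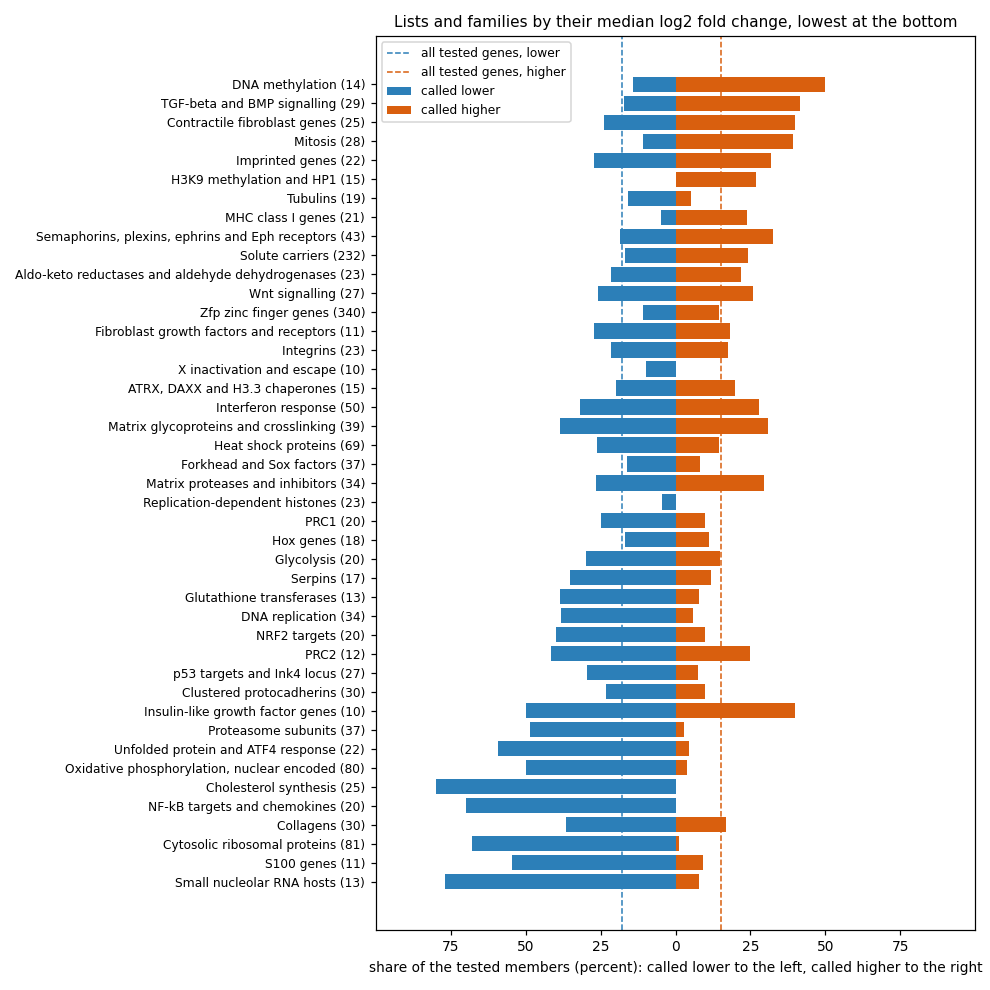
Share of tested members called lower (left of 0) and higher (right of 0) in the libraries labelled ATRX KD for each gene list or family, ordered by median log2 fold change, with the number of tested members in parentheses. Dashed lines mark 17.8% lower and 15.2% higher among all tested genes. Cholesterol synthesis and NF-kB genes have no bar on the higher side.

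Daxx, the chaperone partner of ATRX, was at 38.9 and 37.8 CPM in WT and 26.3 and 34.1 CPM in ATRX KD, which did not pass (log2 fold change −0.33, SE 0.16, adjusted p 0.16). Of 15 genes of ATRX, DAXX and H3.3 chaperones, 3 were higher and 3 lower, and none was called with the ATRX KD libraries summed. The 3 higher ones were Cabin1 (0.56), Ubn2 (0.46) and H3f3a (0.61), and the 3 lower ones Dek (−0.64), Asf1a (−0.76) and Hira (−0.50). Xist, the RNA that coats the inactive X chromosome, was at 858 and 2100 CPM in WT, 2180 and 2140 CPM in ATRX KD, and 1530 and 692 CPM in ATRXΔRBR, so that no difference was separable from the spread within WT (0.55, SE 0.35, adjusted p 0.26).

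PRC2 genes were called both ways, 3 higher and 5 lower of 12. Ezh1, the less active of the catalytic paralogs, rose from 24.2 and 27.5 to 61.7 and 61.8 CPM (log2 fold change 1.26, SE 0.13, adjusted p 0.00093), and was also above WT in ATRXΔRBR, at 58.0 and 49.2 CPM. Ezh2 was at 145 and 136 against 184 and 179 CPM (0.37, SE 0.11, adjusted p 0.043). Aebp2 and Mtf2, accessory subunits of different PRC2 forms, were lower (−1.07, SE 0.12 and −0.78, SE 0.11). The core subunit Suz12 did not pass, at 210 and 232 against 216 and 188 CPM. With the ATRX KD libraries summed 2 were called lower.

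Genes of DNA methylation were higher in 7 and lower in 2 of 14 cases, and genes of H3K9 methylation and HP1 were higher in 4 and lower in 0 of 15. Dnmt3a, a de novo methyltransferase, rose from 31.8 and 35.1 to 60.5 and 69.3 CPM (log2 fold change 0.97, SE 0.14), and Tet3, which oxidises methylcytosine, from 45.2 and 42.9 to 79.3 and 86.4 CPM (0.92, SE 0.13). Cbx5, the gene of HP1 alpha, was at 595 and 626 against 811 and 778 CPM (0.38, SE 0.10). Of 22 imprinted genes 7 were higher and 6 lower. Igf2r, the receptor that clears IGF2, rose from 42.4 and 66.5 to 241 and 256 CPM (2.2, SE 0.21), and Dlk1 fell from 43.8 and 28.5 to 2.93 and 3.10 CPM (−3.57, SE 0.27).

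Promoter state was taken from the CUT&RUN peak lists of EZH2 and H3K27me3, with a peak counted within 2 kb of the transcription start. The lists of ATRX KD were shorter than those of WT, 7241 and 6336 against 36011 and 38832 peaks for H3K27me3, and depth cannot be read from them. Of 1094 genes with an H3K27me3 peak in both WT lists, 203 (18.6%) were higher and 261 (23.9%) lower, with a median log2 fold change of −0.14. Of 15441 genes without such a peak 15.0% were higher and 17.3% lower, with a median of −0.01. Among genes with a mean of at least 1 CPM, the 671 marked genes had 181 higher and 173 (25.8%) lower and a median of 0.01, and the 11875 others had 2200 (18.5%) higher, 2432 (20.5%) lower and a median of −0.02.

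The marked genes divided by whether the peak was also in the ATRX KD lists. For 333 genes with H3K27me3 in both WT and both ATRX KD lists, 48 (14.4%) were higher and 102 (30.6%) lower, with a median of −0.43. For 581 genes with H3K27me3 in both WT lists and neither ATRX KD list, 120 (20.7%) were higher and 105 (18.1%) lower, with a median of 0.07. Ret and Hapln4 were of the latter kind, with H3K27me3 in both WT lists and in no ATRX KD list. Pde3b and Hunk, at 0 counts in ATRX KD, had the mark in all 4 lists. Gnai1 and Kcnip1, also at 0 counts in ATRX KD, had it in both WT lists and in no ATRX KD list. The named genes thus did not follow the division of the medians in every case. Genes with EZH2 and no H3K27me3 in WT, 8614 in number, were near the background, with 1476 (17.1%) higher, 1619 (18.8%) lower and a median of −0.02.

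Fold changes were higher in longer genes, which is given as a description without a test. Genes were split into 5 groups of equal size by the length of their merged exons. The median log2 fold change was −0.25, −0.17, −0.07, 0.04 and 0.24 from the shortest group, with a median of 945 bases, to the longest, with 9113 bases. Called higher were 4.09% of the shortest and 32.6% of the longest genes. The difference between the longest and the shortest group was 0.49, and it was above 0 on each of 20 chromosomes (0.25 to 0.70). It was 0.37 by genomic span.

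The WT libraries differed from each other by length too. The longest group minus the shortest was −0.31 for WT replicate 1 minus replicate 2, and 0.06 for the ATRX KD replicates. It was 0.58 and 0.51 for the ATRX KD libraries against WT replicate 1, and 0.28 and 0.23 against WT replicate 2. The sign was shared by all 4 pairs, but the size depended on the WT library, and 0.31 remained without WT replicate 1. The trend was not seen among the lowest genes. Across 5 groups by expression it was −0.16, 0.05, 0.49, 0.77 and 0.81 from lowest to highest.

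**Figure D4:**
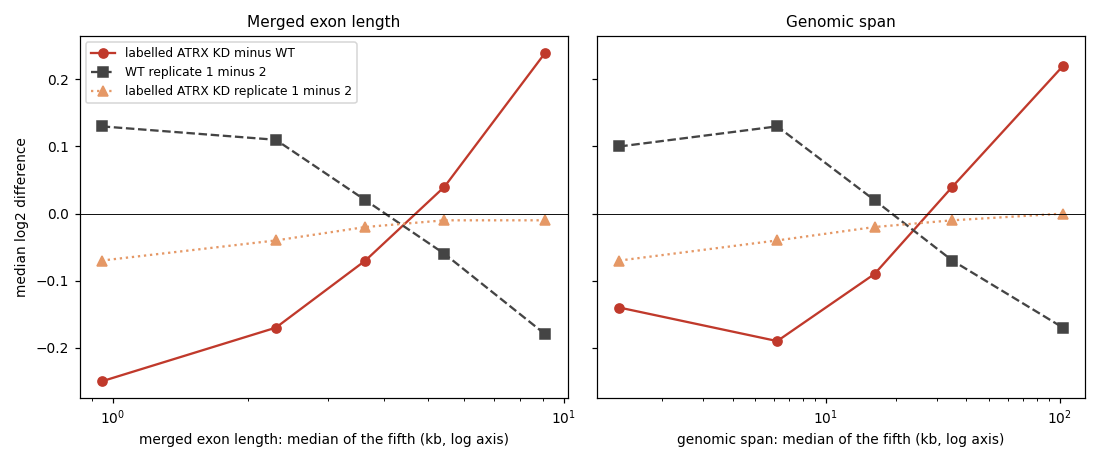
Median log2 difference in 5 groups of genes by merged exon length (left) or genomic span (right), plotted at each group's median length in kb on a log axis. The line of ATRX KD minus WT climbs from −0.25 to 0.24 over exon length while WT replicate 1 minus replicate 2 falls from 0.13 to −0.18 and the ATRX KD replicates stay within 0.07 of 0.

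Length bears on the families above. Of the 81 ribosomal protein genes 65 were in the 2 shortest groups, and of the 80 oxidative phosphorylation genes 61. So were 10 of 11 S100 genes, 9 of 13 hosts of small nucleolar RNAs, 13 of 22 members of the unfolded protein and ATF4 list, 11 of 20 NRF2 targets and 19 of 37 proteasome subunits. Among the most expressed genes without ribosomal protein genes, the shortest group had a median of −0.64 and the longest 0.31. Cholesterol genes, with 5 of 25 in the 2 shortest groups and a median of 4415 bases, and NF-kB genes, with 6 of 20 and 4465 bases, were not mainly short. How much of the fall of short families belongs to length was not tested.

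Neighbouring genes also moved together over long stretches of chromosome. Among genes with a mean of at least 1 CPM, the chromosome median ran from −0.43 on chromosome 15 and −0.38 on chromosome 19 to 0.26 on chromosome 12 and 0.30 on chromosome 14. On chromosome 15, 43.9% of 501 genes were called lower and 6.99% higher, and the medians of the 4 pairs of libraries lay between −0.45 and −0.41. The WT replicates differed by no more than 0.14 on any chromosome. In ATRXΔRBR against the same WT libraries, the median of chromosome 15 was 0.30 and that of chromosome 14 was 0.05.

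The sharpest step was on chromosome 6. From 20 to 100 Mb, 351 genes had a median of 0.25, with 111 higher and 33 lower. From 100 Mb to the end, 232 genes had a median of −0.72, with 11 higher and 136 (58.6%) lower, and medians between −0.77 and −0.65 in the 4 pairs of libraries. The running median of 25 genes passed from above 0.1 to below −0.4 between 106769120 and 108563605 (mm10). ATRXΔRBR had a median of −0.40 against WT over the same distal stretch. Tpi1 and Eno2, glycolytic genes that were lower, and Aebp2 of PRC2 lie in the distal stretch. Ret lies there too, at 118151745 to 118197718, and was raised. Over the genome, 31 of 137 blocks of 20 Mb had a median over 0.3 in size, against 1 block for the WT replicates and 0 for the ATRX KD replicates.

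**Figure D5:**
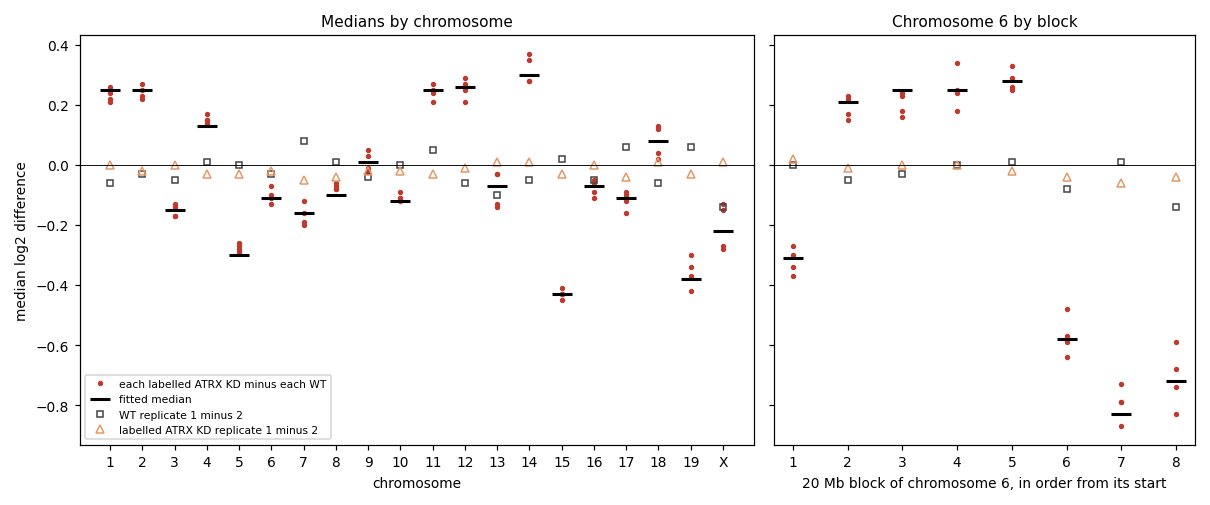
Median log2 difference of genes with a mean of at least 1 CPM by chromosome (left) and by 20 Mb block along chromosome 6 (right). Dots are each ATRX KD library minus each WT library, bars the fitted median, and open symbols the differences between replicates. The distal 3 blocks of chromosome 6 lie far below 0 in all 4 pairs, and the replicate differences stay close to 0.

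The label of fibroblast was checked against marker genes. The summed level of 15 fibroblast markers was 16700 and 12800 CPM in WT and 17600 and 18700 CPM in ATRX KD, with Thy1 and Lum at 0 in all 4 libraries. Of the 13 tested, 4 were called higher, Fn1 (0.99), Col5a1 (0.74), S100a4 (0.62) and Pdgfrb (0.51), with the log2 fold change in parentheses. The 4 called lower were Col3a1 (−6.99), Dcn (−6.91), Twist1 (−0.84) and Twist2 (−0.72). Sums of epithelial markers were 1.20 and 1.10 CPM in WT and 0.331 and 0.322 CPM in ATRX KD, those of endothelium 5.63 and 5.74 against 1.22 and 0.644, and those of pluripotent cells 0.45 and 0.337 against 0 and 0. Adipocyte markers were at 46.6 and 36.6 against 17.8 and 19.9 CPM, with Fabp4, a fatty acid carrier, lower (log2 fold change −1.61, SE 0.19). Markers of cartilage and bone summed to 120.0 and 90.6 CPM in WT and 94.7 and 94.8 CPM in ATRX KD. All 4 of them that were tested had fold changes below 0. Col2a1 (−5.62) and Acan (−5.41), at means of 1.99 and 1.78 CPM in WT, were called lower. Blood markers summed to 35.7 and 37.7 against 34.9 and 31.2 CPM. Neural markers summed to 241 and 215 against 216 and 217 CPM, with 1 of the 5 tested called higher and 1 lower. Map2 rose from 40.1 and 58.3 to 108 and 101 CPM (log2 fold change 1.09, SE 0.18). Sox2, a factor of neural and pluripotent progenitors, fell from 48.4 and 36.9 to 0.976 and 0.502 CPM (−6.00, SE 0.31). In bulk libraries, fewer cells of a type and less RNA per cell cannot be told apart.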

How the data were processed

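The authors aligned polyA RNA-Seq reads to mm10 with STAR. RSEM then gave the deposited estimated counts of each gene, and from these and the isoform lengths the TPM values that the authors deposited beside them. Counts were rounded, genes with more than 10 counts over the 4 libraries kept, and libraries scaled by TMM. The libraries labelled ATRX KD were set against WT with edgeR 4.0.16 in R 4.3.3 (quasi-likelihood test, Benjamini-Hochberg adjusted p under 0.05). Alternatives used DESeq2 1.42.0 and limma 3.58.1 on log2(TPM + 1). The fit was tested on simulated data. Genes were matched to GENCODE M21 (GRCm38) for 53706 of 53801 identifiers. The deposited EZH2 and H3K27me3 peak lists, called by the authors with MACS2 per library, were used for position only: their signal, fold and −log10 columns were not used. Precision follows depth, and intervals cover counting error only.

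Members, gene lists and motifs were chosen with earlier results of these data known. The genes named were the 12 most changed in each direction among called protein-coding genes with a mean of at least 10 CPM in the higher group, no overlap between the groups and no other gene overlapping their exons on the same strand, then up to 4 called members of each list with the smallest adjusted p, and members that define a pathway, called or not. A few others were named after their values were seen, and some genes of the rule are not reported here. Same-numbered libraries did not deviate together (r = −0.0951 over 12724 genes), so the replicate number was a block only in an alternative. Figures were drawn with matplotlib 3.10.9.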

Additional observations from a re-analysis of the deposited data

How the results depend on the processing

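The number of called genes moved with the libraries, the test and the fold threshold. It was 5538 as reported, 3480 with the ATRX KD libraries summed (chosen after seeing the data; 1622 higher and 1858 lower), and between 3185 and 8998 when each library was left out in turn (1409 to 4350 higher, 1776 to 4648 lower), the lowest without ATRX KD replicate 2 and the highest without WT replicate 2. A lone library was then taken to vary like the other group. A log2 fold change of at least 1 left 2495 (1022 higher, 1473 lower), and limma on log2(TPM + 1) gave 1466 lower. The replicate block gave 5792, and changed no list's direction. DESeq2 called 4820. Of the 219 named genes besides Atrx, none changed sign, 31 lost the call with limma on TPM, 23 with the ATRX KD libraries summed, and 3 under the replicate block. Atrx reversed to 1.18 on the TPM scale, 0.94 after scaling TPM to a common median, 0.04 without ATRX KD replicate 1 and 0.14 without WT replicate 1. It was stronger, at −0.39, without WT replicate 2, so its range on leaving out a library was −0.39 to 0.14. The length trend of 0.49 was 0.63 among genes of at least 1 CPM, 0.71 by the files' length column, 0.64 in protein-coding genes, and 0.31 to 0.63 on leaving out a library. The median of H3K27me3 genes of −0.14 was −0.18 in protein-coding genes and −0.19 to −0.08 on leaving out a library. It was 0.01 among those with a mean of at least 1 CPM. Where no construction shows it, the cause was not tested.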
